A study of Mus musculus with 12 samples.

Results

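Embryoid bodies grown from CD47 null lung endothelial cells (null_EB, 3 arrays) were compared with wild-type lung endothelial cells (WT_EC, 3 arrays). These 6 arrays, taken by their labels, are part of a series of 12 arrays in 4 groups of 3, and 19938 genes were tested. The null_EB cells came from C57Bl/6 mice without CD47, had been passaged for 6 months, and were seeded in basal endothelial medium without serum, where aggregates appeared within 24 to 36 h. The CD47 null endothelial cells (null_EC, 3 arrays), also from C57Bl/6 mice, and the WT_EC cells of wild-type C57Bl/6 mice were both grown in the complete endothelial medium EGM2. A line of mouse embryonic stem cells (ESC, 3 arrays), V6.5 cells grown with 15% serum and LIF, served here only for the shared estimate of the spread and as a check of markers. Between null_EB and WT_EC the genotype, the medium, the aggregated growth form and possibly the passage differ together, and their parts cannot be told apart. The labels do not say whether replicates came from separate animals or cultures, so the p-values may measure technical spread only.

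CD47 is a cell surface protein that binds the matrix protein thrombospondin-1 and the phagocyte receptor SIRP alpha. In endothelial cells it is known for limiting nitric oxide signalling and signalling through the VEGF receptor KDR. Embryoid bodies are free-floating aggregates, best known from pluripotent stem cells, in which cells can start to differentiate. The question of the comparison was which differences of the null cells from wild-type cells were still present in the aggregates and which were not, with null_EC values set beside those of null_EB.

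All values are log2 signals, where a step of 1 is a 2-fold change, and calls were made at a limma p below 0.05 after Benjamini-Hochberg adjustment over all genes. Array medians ran from 7.66 to 7.75. Correlations across genes between pairs of arrays were 0.997 to 0.998 within null_EB, 0.949 to 0.958 within WT_EC, and 0.942 to 0.976 between these groups. Per gene, the SD within a group had a median of 0.077 in null_EB, 0.0652 in null_EC and 0.213 in WT_EC. The pooled error is therefore too small for WT_EC, and p-values against WT_EC tend to be too small. For null_EB against null_EC the same error tends to be too large, so genes not called there may still differ. That contrast had 1077 calls, and 5464 with its own 6 arrays alone. A mean below 8.01, the median of all values, is called low signal. The 3 arrays per group limit the precision.

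The endothelial label was checked against defining markers. None of 10 endothelial markers had a mean above low signal in null_EB, against 1 in null_EC (Kdr) and 4 in WT_EC. Cdh5, the cadherin of endothelial junctions, was at 7.01, 7.09 and 7.04 in null_EB and at 9.10, 6.85 and 9.52 in WT_EC. Pecam1, an adhesion molecule of endothelium, was at 6.53 to 6.59 in null_EB and 6.46 to 7.56 in WT_EC, a low signal in both. Of the other cell types checked, 5 of 6 mesothelial markers were above low signal in null_EB, 6 in null_EC and 5 in WT_EC, among them Msln (11.96 to 12.08 in null_EB, 11.17 to 12.35 in WT_EC). Of 7 fibroblast markers, 6 were above low signal in null_EB (all but Lum) and 7 in WT_EC. The same 6 were above it in ESC, as were 3 endothelial and 2 mesothelial markers, so this cut alone does not identify a cell type. The summed linear signal of the fibroblast markers was 18394 to 20025 in null_EB, 23199 to 39406 in WT_EC and 8775 to 9259 in ESC. The mesothelial sum was 11986 to 13553 in null_EB and 22180 to 22452 in null_EC. It was 8182 to 18263 in WT_EC and 1323 to 1398 in ESC. The endothelial sum was 1275 to 1359 in null_EB, below the 1961 to 2127 of ESC. It was 2681 to 3036 in null_EC and 1455 to 3682 in WT_EC. Epithelial markers were low in null_EB, null_EC and WT_EC, and so were the 5 pluripotency markers, all of which were above low signal in ESC. Of 6 immune markers, 1 was above low signal in null_EB and 3 in WT_EC, with a summed linear signal of 1472 to 1830 in null_EB and 1771 to 10858 in WT_EC. WT_EC 3 was the high array, with Lyz2, the lysozyme of macrophages, at 12.31 against 9.05 on WT_EC 1 and 5.44 on WT_EC 2. In such bulk samples fewer cells of a type and less RNA per cell cannot be told apart.

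Of all genes, 3697 (18.5%) were called between null_EB and WT_EC, 2462 higher (12.3%) and 1235 lower (6.19%), with a median log2 difference of 0.02. At 2-fold or more 214 were higher (1.07%) and 463 lower (2.32%). Higher calls were 66.6% of all calls, but 45.7% after cyclic loess scaling (1487 higher, 1766 lower), so the split into higher and lower calls depended on the scaling. With the 6 arrays alone 538 were higher and 332 lower. For the comparisons set beside this one, in null_EB against null_EC 2.9% of genes rose and 2.5% fell (median -0.01), and in null_EC against WT_EC 8.12% rose and 5% fell (median 0.03). These shares of all genes are the background for every list count below, and a list with a count near them does not stand out. The comparisons of null_EB and of null_EC with WT_EC share the 3 WT_EC arrays. Their counts are therefore given side by side, and the contrast of null_EB with null_EC is the test of a difference between them.

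The targeted gene was examined first. Cd47 was at 10.99, 10.89 and 10.93 in null_EB, 10.97, 11.11 and 11.02 in null_EC and 12.59, 11.29 and 12.48 in WT_EC. Every null_EB array lay below every WT_EC array, and WT_EC 2 lay closest to them. The difference was 2.27-fold (log2 -1.18, SE 0.270, adjusted p = 0.012 by limma), and it was not called with the 6 arrays alone (adjusted p = 0.12). The probe set may lie outside a disrupted part of the gene, in which case its remaining signal checks nothing. Myc, a growth-promoting transcription factor named in the series title, was at 10.98, 10.79 and 10.83 in null_EB, 10.18, 10.02 and 10.14 in null_EC and 11.06, 10.58 and 10.68 in WT_EC. The null_EB arrays lay within the range of WT_EC (log2 0.09, SE 0.120, adjusted p = 0.661 by limma), and above null_EC (log2 0.75, adjusted p = 0.00503). Klf4, a reprogramming factor, was at 10.52, 10.33 and 10.27 in null_EB and 8.85, 9.56 and 9.69 in WT_EC (log2 1.01, SE 0.190, adjusted p = 0.00454 by limma, and 0.0683 with the 6 arrays alone). Pou5f1, Sox2 and Nanog, the core factors of pluripotency, had low signal in both groups and were not called (log2 -0.28, 0.13 and -0.20, adjusted p = 0.196, 0.568 and 0.145). The pluripotency network had 2 of 38 measured genes higher and 1 lower (median -0.01), and 5 lower without WT_EC 2. Besides Klf4 the higher one was Tfcp2l1 (log2 1.26, adjusted p = 0.00199), and the lower one was Mybl2, a cell cycle transcription factor (log2 -0.70, adjusted p = 0.0246, lost without any 1 null_EB array at 0.0571 to 0.0983).

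The largest increases included genes of RNA export, detoxification and iron transport. Nxf3, of the nuclear RNA export family, was at 9.21, 9.34 and 9.41 in null_EB, 6.45, 6.06 and 6.22 in null_EC and 5.29, 5.48 and 5.21 in WT_EC. It was 15.9-fold higher than in WT_EC (log2 3.99, SE 0.111, adjusted p = 1.58e-08 by limma), and null_EC lay between. Ugt2b34, a glucuronosyltransferase of detoxification, was at 8.30, 8.43 and 8.54 in null_EB and at 5.86, 5.73 and 5.98 in WT_EC, 5.92-fold higher. Gpr137b, a lysosomal membrane protein, was at 11.02, 11.18 and 11.30 in null_EB and at 8.74, 8.36 and 8.89 in WT_EC, 5.67-fold higher. Both groups were tight in these 3 genes and did not overlap. Slc40a1 encodes ferroportin, the iron exporter, and was at 9.72, 9.92 and 9.93 in null_EB against 6.74, 7.88 and 7.71 in WT_EC, 5.35-fold higher. Gsto2, a glutathione transferase of the omega class, was 5.49-fold higher (9.83 ± 0.186 against 7.38 ± 0.397, SD, n = 3 each), and the transporter family member Slc22a23 5.4-fold (11.61 ± 0.134 against 9.18 ± 0.701). Mamdc2 was 5.54-fold and Tnfrsf22, of the TNF receptor family, 5.21-fold higher.

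In the other 4 of the 12 largest increases the WT_EC arrays lay far apart. Prl2c5, of the placental prolactin family, was at 11.12, 11.15 and 11.20 in null_EB and at 9.31, 9.06 and 4.95 in WT_EC. Its 10.4-fold increase (adjusted p = 0.0212) was 3.92-fold without WT_EC 3 and 17.8-fold without WT_EC 1, its call was lost without any 1 null_EB array (adjusted p from 0.0603 to 0.0675), and it has near-identical family members whose RNA may bind the same probes. Anxa8, a calcium-dependent membrane-binding annexin, was 6.82-fold higher (11.55 to 11.63 in null_EB, 7.41 to 10.17 in WT_EC), 4.18-fold without WT_EC 1 and 10.9-fold without WT_EC 3. Olfml2b was 5.22-fold higher, and 9.23-fold without WT_EC 2. The Ras activator Rasgrf2 was 4.92-fold higher, and 7.80-fold without WT_EC 2. With the 6 arrays alone Prl2c5, Anxa8, Olfml2b and Rasgrf2 were not called (adjusted p = 0.167, 0.0711, 0.115 and 0.0747).

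**Figure D1:**
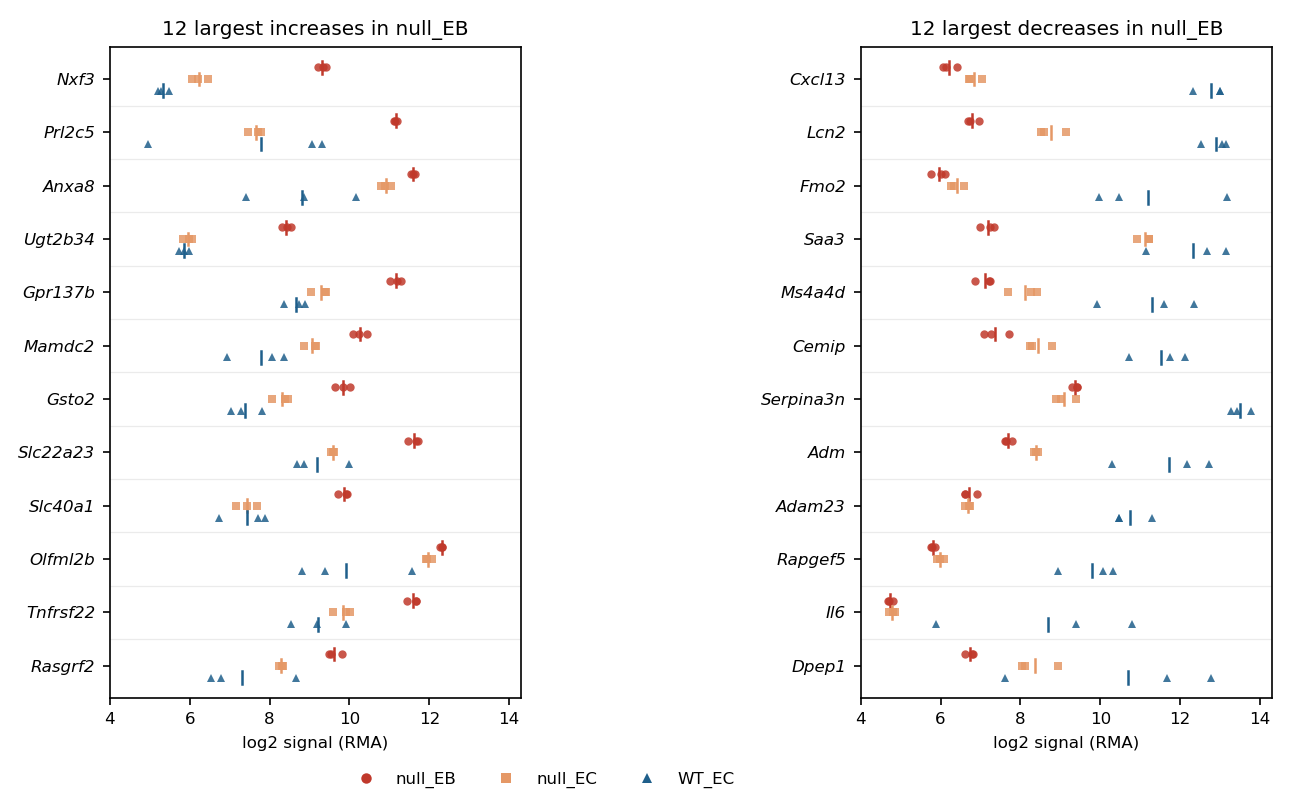
Log2 signal (RMA) on each array for the 12 genes with the largest increase (left) and the 12 with the largest decrease (right) in null_EB against WT_EC. Points are arrays of null_EB (circles), null_EC (squares) and WT_EC (triangles) and short vertical lines are group means; the WT_EC arrays of Prl2c5 run from 4.95 to 9.31, whereas those of Cxcl13 lie between 12.31 and 13.01, far above null_EB.

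The largest decreases were led by secreted genes of inflammation. Cxcl13, a chemokine that attracts B cells, was at 6.42, 6.07 and 6.14 in null_EB, 6.71, 7.04 and 6.73 in null_EC and 12.31, 13.01 and 12.99 in WT_EC. It was 94.3-fold lower in null_EB than in WT_EC (log2 -6.56, SE 0.181, adjusted p = 1.58e-08 by limma), with a low signal in both null groups. Lcn2, an iron-binding acute phase protein, was at 6.96, 6.69 and 6.73 in null_EB, 8.52, 9.15 and 8.6 in null_EC and 13.16, 13.04 and 12.51 in WT_EC, 69.1-fold lower than in WT_EC. Saa3, an acute phase apolipoprotein, was at 6.99, 7.23 and 7.35 in null_EB, 11.23, 10.92 and 11.22 in null_EC and 12.66, 13.16 and 11.15 in WT_EC. Saa3 was 35.1-fold lower than in WT_EC, and 52.8-fold without WT_EC 3. The null_EC arrays stood near the null_EB arrays in Cxcl13 but near the WT_EC arrays in Saa3. Lcn2 and Saa3 were also lower in null_EB than in null_EC (log2 -1.96 and -3.93, adjusted p = 0.00174 and 0.000323 by limma), whereas Cxcl13 did not pass there (log2 -0.61, adjusted p = 0.0827). The protease inhibitor Serpina3n, another acute phase gene, was 17.5-fold lower (9.37 ± 0.0748 against 13.49 ± 0.259, SD, n = 3 each).

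The remaining large decreases covered several functions. Fmo2, a flavin monooxygenase of lung, was 38.1-fold lower (5.76 to 6.10 in null_EB, 9.98 to 13.18 in WT_EC), 19.2-fold without WT_EC 3 and 58.4-fold without WT_EC 2. Cemip, which takes part in breaking down hyaluronan, was 18.0-fold lower (7.09 to 7.71 in null_EB, 10.72 to 12.12 in WT_EC). Ms4a4d was 18.2-fold lower, and 29.2-fold without WT_EC 1. Adm, the precursor of the vasodilator adrenomedullin, was 16.6-fold lower, and 27.3-fold without WT_EC 2. Adam23, an ADAM family member that binds integrins, was 16.4-fold lower (6.62 to 6.90 in null_EB, 10.46 to 11.29 in WT_EC) and the guanine nucleotide exchange factor Rapgef5 15.7-fold. Il6, the inflammatory cytokine, was at 4.69, 4.82 and 4.70 in null_EB and at 10.79, 5.89 and 9.40 in WT_EC. The WT_EC arrays disagreed widely there, and the 15.5-fold decrease was 7.50-fold without WT_EC 1 and 41.0-fold without WT_EC 2. The dipeptidase Dpep1 was likewise 15.5-fold lower, 44.8-fold without WT_EC 2 and 7.53-fold without WT_EC 3, and its call was lost without any 1 null_EB array (adjusted p from 0.0558 to 0.0583). With the 6 arrays alone Il6 and Dpep1 were not called (adjusted p = 0.127 and 0.149).

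Genes of mitosis were lower in null_EB as a group. Among its 47 members on the array 44 fell and 0 rose, and 3 did not pass, against 6.19% of all genes lower, and their median was -1.20. Array medians of the list were 7.94, 7.54 and 7.56 in null_EB, 7.27, 7.52 and 7.30 in null_EC and 9.01, 8.69 and 9.42 in WT_EC. The null_EB and null_EC arrays both lay below all WT_EC arrays. In null_EC against WT_EC 46 fell, with a median of -1.60, and in null_EB against null_EC 3 rose and 0 fell, with a median of 0.30. Cyclin A2 (Ccna2), which acts from DNA synthesis into mitosis, was at 8.88, 8.15 and 8.04 in null_EB and 10.92, 10.25 and 11.08 in WT_EC, 5.24-fold lower (SE of log2 0.277, adjusted p = 0.000299 by limma). Bub1, a kinase of the spindle checkpoint, was at 7.55, 6.80 and 6.92 in null_EB and 9.84, 8.84 and 9.63 in WT_EC, 5.09-fold lower (adjusted p = 0.000458). Prc1, which bundles microtubules for cytokinesis, was at 7.94, 7.39 and 7.17 in null_EB and 9.64, 9.55 and 9.98 in WT_EC, 4.66-fold lower (adjusted p = 4.51e-05). The decrease of mitosis genes held with the 6 arrays alone (36 lower), after cyclic loess (46 lower) and without any 1 array (43 to 46 lower). Of 41 DNA replication genes 17 fell and 0 rose, with a median of -0.44. With the 6 arrays alone 0 of them were called, and without null_EB 2 or null_EB 3 the count was 8 and 7. They included Rrm2, a subunit of ribonucleotide reductase (3.08-fold lower, adjusted p = 0.00745), and the DNA polymerase subunit Pole (2.49-fold lower, adjusted p = 0.0077). Array medians of replication genes were 8.69, 8.38 and 8.44 in null_EB and 9.48, 8.75 and 8.69 in WT_EC, so null_EB 1 and WT_EC 3 were level.

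Promoters of mitotic genes are known for pairing CCAAT boxes, bound by the factor NF-Y, with the cell cycle homology region TTTGAA (CHR), through which the DREAM complex represses them in resting cells. The windows of 4 of the genes that fell are shown because each carries the letters of at least 1 of these motifs, in capitals where either strand matches. The windows cover the 150 bases before the gene start (RefSeq, GRCm38.p6), each 5′ to 3′ on the gene's strand. Bub1 lies at chr2:127831860-127832009 (minus strand), Prc1 at chr7:80294301-80294450 (plus strand), the mitotic kinase gene Cdk1 at chr10:69352913-69353062 (minus strand) and the B-type cyclin gene Ccnb2 at chr9:70421555-70421704 (minus strand).
Bub1: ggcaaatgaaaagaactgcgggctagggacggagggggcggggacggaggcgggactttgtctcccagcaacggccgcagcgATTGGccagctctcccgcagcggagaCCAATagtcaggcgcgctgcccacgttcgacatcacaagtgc
Prc1: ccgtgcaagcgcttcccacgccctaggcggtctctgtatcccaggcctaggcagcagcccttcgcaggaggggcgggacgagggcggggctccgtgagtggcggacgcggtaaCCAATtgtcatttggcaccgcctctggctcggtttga
Cdk1: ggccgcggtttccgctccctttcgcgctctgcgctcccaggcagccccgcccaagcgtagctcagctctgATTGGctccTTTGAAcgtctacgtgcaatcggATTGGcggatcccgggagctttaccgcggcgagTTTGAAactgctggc
Ccnb2: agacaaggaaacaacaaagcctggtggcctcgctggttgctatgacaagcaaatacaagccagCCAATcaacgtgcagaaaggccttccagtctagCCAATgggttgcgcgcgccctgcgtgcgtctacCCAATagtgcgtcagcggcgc
These windows hold 2 CCAAT boxes in Bub1, 1 in Prc1, 2 in Cdk1 and 3 in Ccnb2, and CHR letters 2 times in Cdk1 and 0 times in the others. Cdk1 and Ccnb2 were chosen after their values were seen. Cdk1 was at 10.09, 9.50 and 9.44 in null_EB and 11.10, 10.54 and 10.89 in WT_EC (2.24-fold lower, adjusted p = 0.00159 by limma) and Ccnb2 at 9.38, 8.84 and 8.98 in null_EB and 10.59, 10.37 and 11.37 in WT_EC (3.27-fold lower, adjusted p = 0.000895). Over 250 bases before the start, CCAAT or its reverse stood in 26 of the 39 mitosis genes with a window (66.7%), against 35.5% of 15614 windows of all genes, and TTTGAA or its reverse in 11 of 39 (28.2%), against 13.7% of all. Ccnb2 was among these 11, although it had no full CHR match in the 150 bases shown. The 2 motifs do not overlap in their letters, and a match of letters is a description of the window, not a measured site.

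Inflammatory cytokines and acute phase genes were lower in null_EB well beyond the leading genes. Among 35 members on the array 19 fell and 1 rose, and 15 did not pass, with a median of -1.33. Array medians were 7.08, 7.25 and 7.32 in null_EB, 7.77, 7.66 and 7.79 in null_EC and 10.79, 9.31 and 9.38 in WT_EC, without overlap. Against the same WT_EC arrays 16 fell in null_EC, with a median of -1.25, and in null_EB against null_EC 3 fell and 2 rose. The member that rose was Vcam1, an adhesion molecule for leukocytes (12.84 to 12.96 in null_EB, 12.10 to 12.63 in WT_EC, log2 0.46, adjusted p = 0.0373), and its call was lost without WT_EC 3 (adjusted p = 0.0772), null_EC 1 or null_EC 3 (0.0543 and 0.0565) or any 1 null_EB array (0.0838 to 0.116). Immune cell genes were highest on WT_EC 3, where the median of their list was 8.62, against 7.31 on WT_EC 1, 6.39 on WT_EC 2 and 6.49 to 6.59 in null_EB, and their part in the result was not tested. Without WT_EC 3 the inflammatory list had 23 members lower and a median of -1.66. With the 6 arrays alone 10 fell. Of the 24 immune cell genes themselves 1 fell, Cd14, the receptor for bacterial lipopolysaccharide, at 7.63 to 7.76 in null_EB and 8.48 to 10.20 in WT_EC (adjusted p = 0.0147, 0.0508 without null_EB 2 and 0.0546 without null_EB 3). Without WT_EC 2 there were 13 immune cell genes lower, with a median of -1.09. Interferon response genes had 1 of 31 lower, the nucleic acid sensor Zbp1 (4.68-fold, adjusted p = 0.00971, 3.10-fold without WT_EC 2), and 6 lower in null_EC against WT_EC. That list also turned on single arrays: without WT_EC 3 it had 11 lower and a median of -0.67, and without WT_EC 2 it had 6 higher, 1 lower and a median of 0.20.

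Genes of the connective tissue matrix were lower too. Of 34 fibroblast and interstitial matrix genes 16 fell, 0 rose and 18 did not pass (8 fell with the 6 arrays alone), with a median of -1.07. Array medians were 9.48, 9.28 and 9.26 in null_EB, 9.87, 10.50 and 10.17 in null_EC and 10.15, 10.57 and 11.20 in WT_EC. In null_EC against WT_EC 7 fell, and in null_EB against null_EC 6 fell. Postn, a matrix protein of fibroblasts, was at 6.34, 6.37 and 6.19 in null_EB and at 10.13, 7.40 and 11.20 in WT_EC (9.68-fold lower, adjusted p = 0.0124, 20.6-fold without WT_EC 2 and 5.51-fold without WT_EC 3). The collagen-binding proteoglycan Lum was at 5.94, 5.94 and 5.62 in null_EB and at 6.98, 10.58 and 9.20 in WT_EC (8.49-fold lower, adjusted p = 0.00932, 16.6-fold without WT_EC 1 and 4.77-fold without WT_EC 2). Of 22 basement membrane genes 10 fell and 1 rose (3 fell and 0 rose with the 6 arrays alone), with a median of -0.36. Lama4, the laminin chain of vessel walls, was at 7.30, 7.03 and 6.98 in null_EB and 11.00, 9.41 and 10.67 in WT_EC (9.55-fold lower, adjusted p = 9.69e-05). Nid2, a linker of basement membranes, was at 9.08, 8.93 and 8.93 in null_EB and 10.20, 11.17 and 11.63 in WT_EC (4.06-fold lower, adjusted p = 0.000682), and its null_EC arrays were at 11.69, 11.74 and 11.72. The member that rose was the laminin chain Lama5 (log2 0.97, adjusted p = 0.0291, lost without any 1 null_EB array at 0.0675 to 0.0928).

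Of 27 matrix proteases and inhibitors 7 fell and 4 rose, against 6.19% and 12.3% of all genes, with a median of -0.46. The count higher is near the share of all genes. With the 6 arrays alone 2 fell and 1 rose, 12 fell without WT_EC 1, and 2 or 3 fell and 1 rose without any 1 null_EB array. The gelatinase Mmp2 was at 10.45, 10.13 and 10.27 in null_EB and 11.66, 11.82 and 13.05 in WT_EC (3.72-fold lower, adjusted p = 0.00143), and Mmp11 at 10.46, 10.65 and 10.64 in null_EB and 9.11, 9.48 and 9.61 in WT_EC (2.27-fold higher, adjusted p = 0.000285). The collagenase Mmp13 was at 11.11, 11.84 and 11.57 in null_EB and 11.34, 7.25 and 6.88 in WT_EC, so the groups overlapped, and its 8.09-fold increase, which was 21.7-fold without WT_EC 1, 5.26-fold without WT_EC 2 and 4.62-fold without WT_EC 3, was not called without any 1 array of the 3 groups other than WT_EC 1 (adjusted p from 0.0576 to 0.122). Of 20 integrin genes 4 rose and 2 fell, but 2 rose and 0 fell with the 6 arrays alone, 6 fell without WT_EC 2 and 0 fell without any 1 null_EB array. Itgb8, the integrin chain that activates TGF-beta, was at 10.53, 10.41 and 10.40 in null_EB and 8.37, 8.38 and 8.68 in WT_EC (3.91-fold higher, adjusted p = 7.62e-06), and Itgb4, of hemidesmosomes, at 9.06, 8.98 and 9.07 in null_EB and 8.45, 8.12 and 8.46 in WT_EC (1.61-fold higher, adjusted p = 0.00182).

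Genes of the unfolded protein response, the response to misfolded protein in the endoplasmic reticulum, were higher. Of 20 members 12 rose, 0 fell and 8 did not pass, against 12.3% of all genes higher, with a median of 0.49. Array medians were 11.62, 11.54 and 11.46 in null_EB, 11.84, 11.82 and 11.99 in null_EC and 11.06, 10.80 and 10.88 in WT_EC. All null_EB arrays lay above WT_EC and below null_EC. None of the 20 passed in null_EB against null_EC, where the pooled error tends to be too large, so a difference there is not excluded. In null_EC against WT_EC 18 rose, with a median of 0.77. Ddit3, the stress transcription factor CHOP, was at 10.59, 10.81 and 10.68 in null_EB, 10.60, 10.42 and 10.81 in null_EC and 9.27, 9.33 and 8.27 in WT_EC (3.33-fold higher in null_EB than in WT_EC, adjusted p = 0.000727). Derl3, of the pathway that degrades misfolded proteins, was at 9.20, 9.05 and 8.97 in null_EB and 8.10, 7.6 and 7.86 in WT_EC (2.33-fold higher, adjusted p = 0.00309), and the chaperone Hyou1 was 1.81-fold higher (adjusted p = 0.0125, 0.0526 without null_EB 2). The count of 12 was 4 with the 6 arrays alone, 8 after cyclic loess and 7 without null_EB 2. In the related amino acid stress response 7 of 24 rose and 2 fell (3 and 1 with the 6 arrays alone, 13 and 3 without WT_EC 1), among them the stress pseudokinase Trib3 (2.10-fold higher, adjusted p = 0.00653) and the secreted hormone gene Stc2 (2.97-fold lower, adjusted p = 0.00128).

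Autophagy and lysosome genes had 10 of 34 higher and 0 lower, with a median of 0.29 (3 higher with the 6 arrays alone, 7 without null_EB 1 or null_EB 2). They included Mcoln1, the lysosomal calcium channel (11.67 to 11.73 in null_EB, 10.86 to 11.10 in WT_EC, adjusted p = 0.000575), and the autophagy receptor Sqstm1 (12.99 to 13.07 in null_EB, 11.91 to 12.64 in WT_EC, adjusted p = 0.0116). In null_EC against WT_EC 8 rose, with the same median, and in null_EB against null_EC 1 rose. Ribosome biogenesis genes had 12 of 40 higher and 1 lower, with a median of 0.29, against 2 higher and 1 lower in null_EC against WT_EC, where the median was 0.03. In null_EB against null_EC 3 of them rose and 0 fell, with a median of 0.23. The count of higher genes was 3 with the 6 arrays alone and 20 without WT_EC 1. Polr1c, a subunit of RNA polymerases I and III, was at 11.53, 11.66 and 11.65 in null_EB and 10.53, 10.96 and 10.41 in WT_EC (1.98-fold higher, adjusted p = 0.000546). Array medians were 10.12, 10.09 and 10.05 in null_EB and 10.06, 9.93 and 9.61 in WT_EC, with WT_EC 1 close to null_EB.

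Endothelial identity genes had 6 of 44 lower and 0 higher, with a median of -0.23. The VEGF receptor Flt1 was at 9.04, 8.97 and 9.08 in null_EB and 10.05, 9.42 and 10.17 in WT_EC (1.80-fold lower, adjusted p = 0.00543). The count was 1 with the 6 arrays alone, and without WT_EC 2, on which Cdh5 and Esam were at 6.85 and 6.97, it was 22. In the VEGF and angiopoietin system 5 of 19 fell and 2 rose, with a median of -0.55 (10 fell without WT_EC 2). Vegfc, the growth factor of lymphatic vessels, was at 8.0, 7.97 and 8.14 in null_EB and 9.92, 9.58 and 10.08 in WT_EC (3.54-fold lower, adjusted p = 1.02e-05), and Vegfb at 11.34, 11.44 and 11.45 in null_EB and 10.05, 10.58 and 10.12 in WT_EC (2.23-fold higher, adjusted p = 0.000269). The co-receptor Nrp2 was 1.93-fold higher (adjusted p = 0.00284) and was the 1 of 8 lymphatic endothelium genes called, whereas without WT_EC 2 there were 6 lower and 1 higher. Array medians of the VEGF list were 7.62, 7.74 and 7.63 in null_EB, 8.30, 8.44 and 8.36 in null_EC and 9.56, 8.61 and 9.34 in WT_EC. Among 20 genes around CD47 and its thrombospondin ligands there were 7 lower and 1 higher (2 and 0 with the 6 arrays alone). Thbs2, a thrombospondin of the matrix, was at 8.11, 7.84 and 7.80 in null_EB and 10.59, 8.95 and 11.00 in WT_EC (4.82-fold lower, adjusted p = 0.00438, 7.38-fold without WT_EC 2), with null_EC at 9.46, 10.35 and 9.61. Cd36, a scavenger receptor that also binds thrombospondin, had low signal in null_EB (4.87 to 5.05, against 6.02 to 9.18 in WT_EC), and its call was lost without any 1 null_EB array (adjusted p from 0.0619 to 0.0753). Of 18 Notch pathway genes 2 fell, the ligand Jag1 (2.43-fold, adjusted p = 6.27e-05) and the receptor Notch1 (1.93-fold, adjusted p = 0.00169).

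Several transcription factors of body position were higher and several of mesenchyme lower. Of 37 Hox genes, which mark position along the body axis, 12 rose, 1 fell and 24 did not pass, with a median of 0.18, and the count of higher genes was 4 with the 6 arrays alone and 7 without null_EB 2 or null_EB 3. Hoxc6 was at 8.99, 8.82 and 8.95 in null_EB, 9.04, 8.78 and 8.85 in null_EC and 7.31, 7.56 and 6.88 in WT_EC (3.18-fold higher in null_EB than in WT_EC, adjusted p = 7.16e-05). Hoxc13 was at 8.77, 8.31 and 8.31 in null_EB, 9.20, 9.33 and 9.13 in null_EC and 6.89, 6.88 and 6.99 in WT_EC (2.91-fold higher, adjusted p = 3.71e-05). The member that fell was Hoxb2 (log2 -0.43, adjusted p = 0.0032). The comparison of null_EC with WT_EC had 13 Hox genes higher, and that of null_EB with null_EC 2 lower. Of 17 factors of the epithelial to mesenchymal transition 7 fell and 0 rose (2 with the 6 arrays alone, 3 without null_EB 2 or null_EB 3). Prrx1, a homeobox factor of limb and connective tissue mesenchyme, was at 9.63, 9.54 and 9.45 in null_EB and 11.61, 11.48 and 11.54 in WT_EC (4.01-fold lower, adjusted p = 5.72e-06). Among 25 mesoderm genes 6 fell and 2 rose, with a median of -0.03. Osr1 was at 7.93, 7.78 and 7.99 in null_EB and 9.75, 11.19 and 12.21 in WT_EC (8.86-fold lower, adjusted p = 0.000993, 13.9-fold without WT_EC 1), and Foxf1, a factor of lung mesenchyme, at 8.42, 8.50 and 8.35 in null_EB and 11.28, 9.98 and 11.83 in WT_EC (6.08-fold lower, adjusted p = 0.000642). Runx1, the blood and mesenchyme factor, was 2.79-fold higher (adjusted p = 0.000238).

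**Figure D2:**
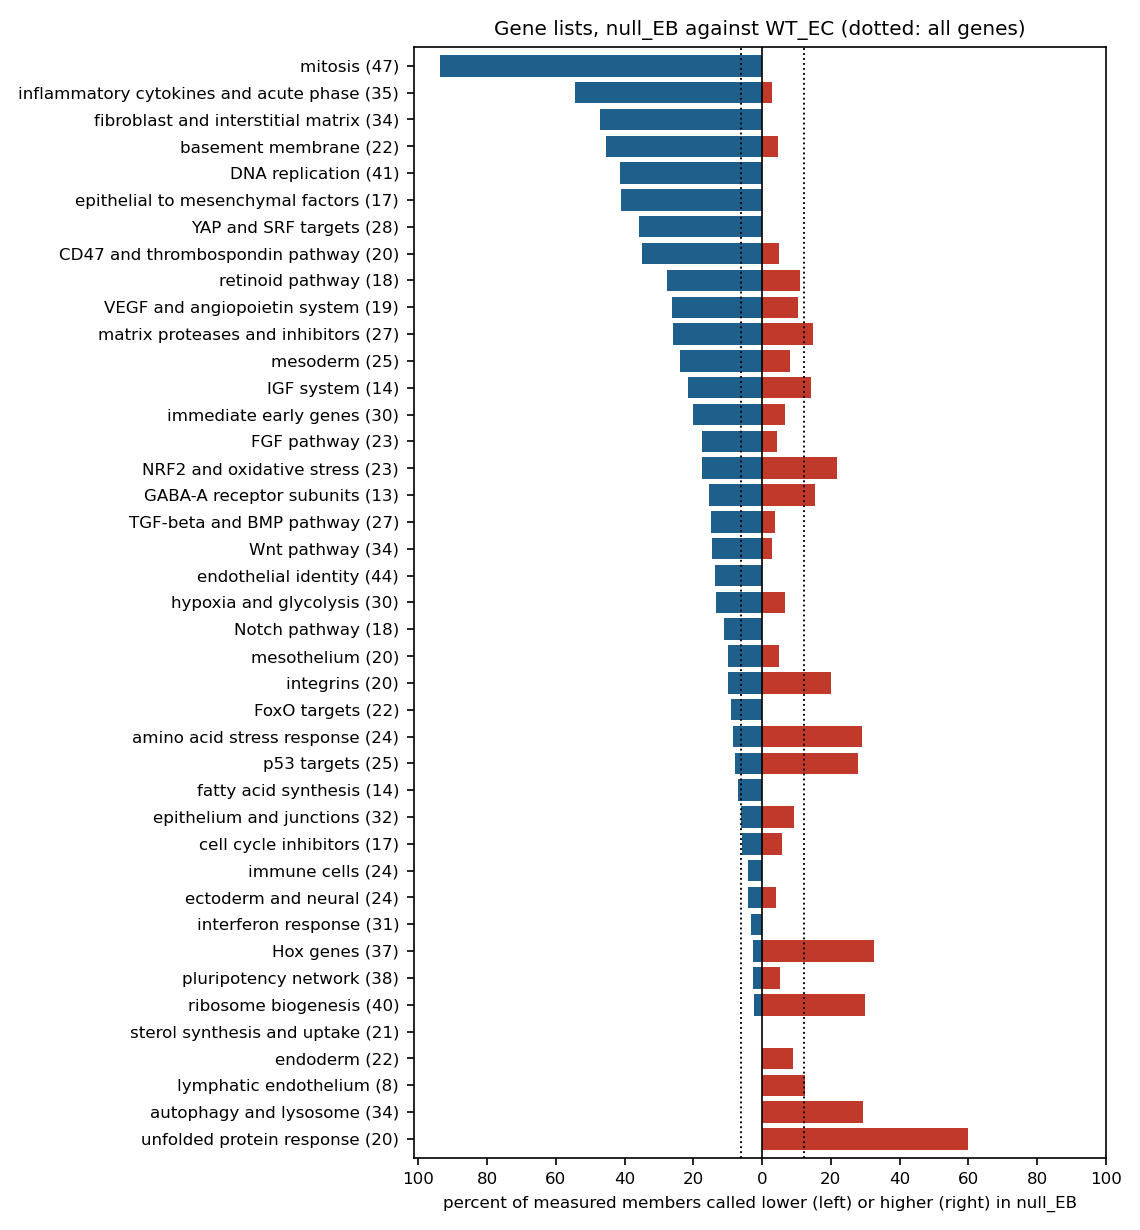
Percent of the measured members of each gene list (number in brackets) called lower (left) or higher (right) in null_EB against WT_EC, at an adjusted p below 0.05 by limma. Dotted lines mark all genes (6.19% lower, 12.3% higher); mitosis stands at the top with 44 of 47 lower and the unfolded protein response at the bottom with 12 of 20 higher.

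Differences of null_EC from WT_EC that were still present in null_EB were collected by a rule: called and at least 2-fold in both against WT_EC in one direction, and less than 0.32 apart (log2) between null_EB and null_EC. The genes of this pattern and of the patterns after it were chosen by these same contrasts, so their values describe them and no test is added. Of 223 genes called higher and 429 called lower by 2-fold or more in null_EC against WT_EC, the rule kept 44 higher and 168 lower ones. Of the higher ones, Bex4 was at 7.46, 7.35 and 7.25 in null_EB, 7.52, 7.08 and 7.29 in null_EC and 4.71, 6.46 and 5.11 in WT_EC. Hid1, which takes part in forming secretory granules, was at 10.31, 10.43 and 10.36 in null_EB, 10.34, 9.99 and 10.15 in null_EC and 8.48, 8.97 and 8.25 in WT_EC. Both null groups were level in these genes, as in Ddit3 and Hoxc6 above. Pcdhb16, a clustered protocadherin, was at 9.43 to 9.70 in null_EB, 9.78 to 9.95 in null_EC and 7.09 to 9.05 in WT_EC. Tuft1 was at 10.76 to 10.79 in null_EB, 10.65 to 10.73 in null_EC and 7.93, 10.50 and 8.61 in WT_EC, and its call in null_EB against WT_EC was lost without WT_EC 3 (adjusted p = 0.0721) or any 1 null_EB array (adjusted p from 0.0734 to 0.0836).

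The lower genes of this pattern included Serpina3n, Adam23, Rapgef5 and Il6 from the largest decreases. Serpina3n was at 9.41, 9.28 and 9.42 in null_EB, 9.02, 9.40 and 8.88 in null_EC and 13.42, 13.28 and 13.78 in WT_EC. Fgf7, a growth factor that mesenchyme sends to epithelium, was at 6.89, 6.93 and 7.21 in null_EB, 6.61, 7.09 and 6.80 in null_EC and 11.22, 10.45 and 10.73 in WT_EC. Folh1, a glutamate carboxypeptidase, was at 5.14 to 5.39 in null_EB, 5.16 to 5.35 in null_EC and 8.39 to 9.65 in WT_EC. In these 3 genes no null array came near the lowest WT_EC array. Il6, Adam23, Fgf7 and Folh1 had low signal in both null groups, with means in null_EB and null_EC of 4.73 and 4.79 for Il6. Differences are compressed at low signal, so a gap under 0.32 is easily met there. The part of such genes in the 168 was not tested.

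**Figure D3:**
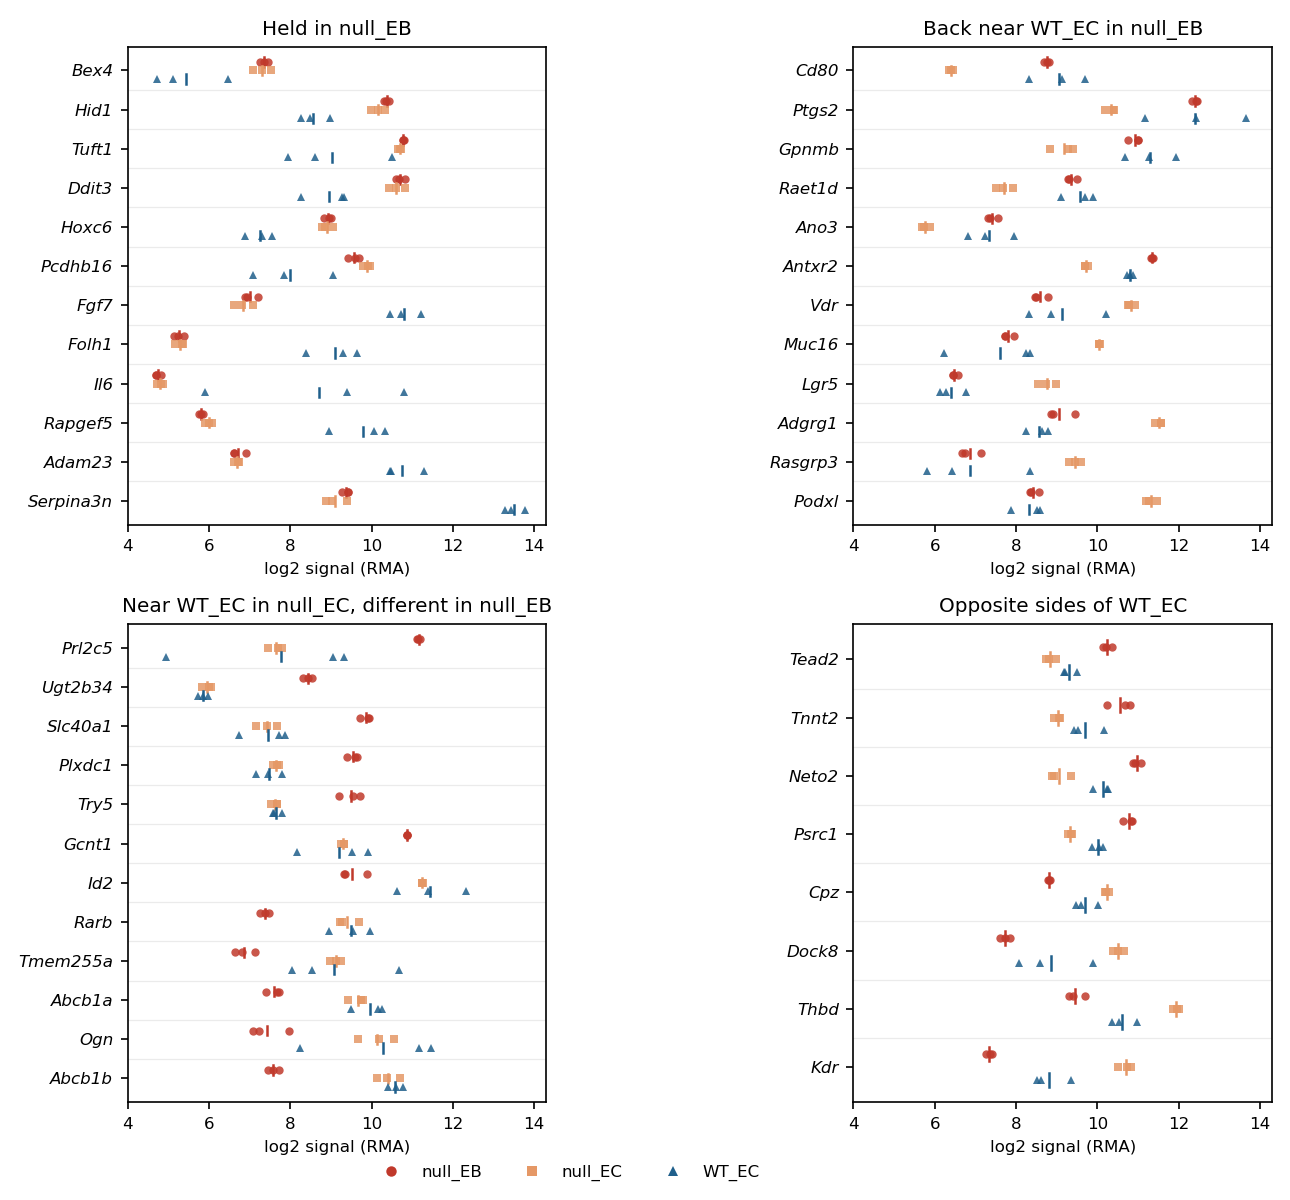
Log2 signal (RMA) per array for genes of 4 patterns, judged by group means: level in null_EB and null_EC but different from WT_EC, back near WT_EC in null_EB, near WT_EC in null_EC but different in null_EB, and on opposite sides of WT_EC. Points are arrays of null_EB (circles), null_EC (squares) and WT_EC (triangles), short vertical lines are group means; Kdr stands at 7.26 to 7.40 in null_EB, 10.52 to 10.83 in null_EC and 8.51 to 9.35 in WT_EC.

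Other differences of null_EC were gone or nearly gone in null_EB. The rule asked for a called difference of at least 2-fold in null_EC, a called move the other way in null_EB against null_EC, and under 1.5-fold left between null_EB and WT_EC. It found 65 of the 223 genes that were at least 2-fold higher in null_EC and 25 of the 429 that were lower there. The rule rests on calls of null_EB against null_EC, which ran from 390 to 8001 by setting. It was not repeated in other settings. Podxl, a sialomucin of cell surfaces, was at 8.56, 8.34 and 8.38 in null_EB, 11.48, 11.28 and 11.19 in null_EC and 8.59, 8.51 and 7.88 in WT_EC. Adgrg1, an adhesion G protein-coupled receptor, was at 9.45, 8.85 and 8.91 in null_EB, 11.58, 11.58 and 11.42 in null_EC and 8.24, 8.65 and 8.78 in WT_EC. Lgr5, the stem cell receptor for R-spondins, was at 6.57, 6.44 and 6.44 in null_EB, 8.55, 8.98 and 8.74 in null_EC and 6.78, 6.28 and 6.14 in WT_EC. The null_EB arrays of Podxl and Lgr5 lay within or close to the WT_EC range, and those of Adgrg1 just above it. Muc16, a mucin of mesothelium, was at 7.72 to 7.95 in null_EB, 10.03 to 10.07 in null_EC and 6.22 to 8.35 in WT_EC, and without WT_EC 1 null_EB was called lower than WT_EC (log2 -0.51, adjusted p = 0.0236 by limma). The Ras activator Rasgrp3 was at 6.68 to 7.15 in null_EB, 9.31 to 9.61 in null_EC and 5.80 to 8.34 in WT_EC, and the vitamin D receptor Vdr at 8.47 to 8.79 in null_EB, 10.76 to 10.94 in null_EC and 8.32 to 10.22 in WT_EC.

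Of the genes that were low in null_EC, Cd80, a costimulatory ligand for T cells, was at 8.81, 8.76 and 8.70 in null_EB, 6.46, 6.41 and 6.36 in null_EC and 9.71, 8.33 and 9.14 in WT_EC. Ptgs2, the inducible cyclooxygenase, was at 12.32, 12.45 and 12.42 in null_EB, 10.38, 10.41 and 10.19 in null_EC and 13.65, 11.18 and 12.42 in WT_EC. Gpnmb, a transmembrane glycoprotein, was at 10.76 to 11.00 in null_EB, 8.83 to 9.41 in null_EC and 10.67 to 11.94 in WT_EC. In these 3 genes every null_EB array lay within the range of the WT_EC arrays, which was wide in Ptgs2. Ano3, of the anoctamin family, and Raet1d, a ligand of the NKG2D receptor, followed at 7.32 to 7.55 and 9.28 to 9.49 in null_EB, 5.68 to 5.88 and 7.50 to 7.92 in null_EC, and 6.83 to 7.95 and 9.11 to 9.89 in WT_EC. Antxr2, an anthrax toxin receptor that binds collagen, stood above WT_EC in null_EB (11.33 to 11.38, against 10.72 to 10.87 in WT_EC and 9.69 to 9.76 in null_EC), and that difference of 0.55 was called (adjusted p = 0.003).

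Several gene lists had fewer members called higher in null_EB than in null_EC, each against WT_EC. Sterol synthesis and uptake had 0 of 21 members called in null_EB against WT_EC, with a median of -0.03 (3 higher and a median of 0.26 without WT_EC 3), whereas 5 rose in null_EC against WT_EC, with a median of 0.70. In null_EB against null_EC 1 fell, Sqle, which makes squalene epoxide (log2 -1.08, adjusted p = 0.0389), a gene named outside the rule. Array medians of this list were 10.15, 9.90 and 9.91 in null_EB, 11.05, 10.28 and 10.86 in null_EC and 9.22, 9.78 and 10.89 in WT_EC, so WT_EC 3 lay among the null_EC arrays. Mesothelium genes had 1 of 20 higher and 2 lower in null_EB against WT_EC, with a median of -0.07, against 8 higher and 1 lower in null_EC against WT_EC, with a median of 0.62. Without WT_EC 1 there were 6 lower in null_EB, with a median of -0.42, and without WT_EC 2 there were 5. In null_EB against null_EC 5 fell and 0 rose, with a median of -0.44. The cytoskeletal linker Ezr remained higher in null_EB than in WT_EC (log2 0.61, adjusted p = 0.00159). Wnt pathway genes had 1 of 34 higher and 5 lower in null_EB against WT_EC, 7 higher and 2 lower in null_EC against WT_EC, and 0 higher and 8 lower in null_EB against null_EC. The count of 5 was 9 without WT_EC 1 or WT_EC 2 and 2 without null_EB 2 or null_EB 3. The ligand Wnt2b was at 7.42, 7.42 and 7.46 in null_EB and 8.50, 8.61 and 8.6 in WT_EC (2.20-fold lower, adjusted p = 3.56e-06).

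The p53 targets ran the other way. In null_EB against WT_EC 7 of 25 rose and 2 fell, against 12.3% and 6.19% of all genes, with a median of 0.19. In null_EC against WT_EC 1 rose and 9 fell, with a median of -0.40, and in null_EB against null_EC 11 rose and 0 fell, with a median of 0.55. Cdkn1a and Bax, also on this list, were not among the genes analysed. Array medians were 9.96, 9.94 and 9.84 in null_EB, 9.35, 9.19 and 9.24 in null_EC and 9.39, 9.40 and 9.63 in WT_EC. Gadd45a, a growth arrest gene induced by DNA damage, was at 10.73, 10.98 and 10.74 in null_EB and 9.01, 9.24 and 8.78 in WT_EC (3.50-fold higher, adjusted p = 1.52e-05). Trp53inp1, which helps p53 to drive cell death genes, was at 12.51, 12.68 and 12.62 in null_EB and 10.33, 11.73 and 11.28 in WT_EC (2.81-fold higher, adjusted p = 0.00303), and Phlda3, an inhibitor of AKT, was 1.93-fold higher (adjusted p = 0.000604). The death receptor Fas was lower (log2 -0.65, adjusted p = 0.0254, lost without any 1 null_EB array at 0.0584 to 0.0847). With the 6 arrays alone 3 rose and 0 fell, and without any 1 null_EB array 5 to 7 rose and 0 fell. After cyclic loess 4 rose and 2 fell in null_EB against WT_EC, with a median of 0.06. After the shift that set housekeeping genes level, the median of all genes moved to 0.22 in null_EB against null_EC and to -0.21 in null_EC against WT_EC, so the list medians in those comparisons are relative to the deposited scale, while it stayed at 0.01 in null_EB against WT_EC.

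**Figure D4:**
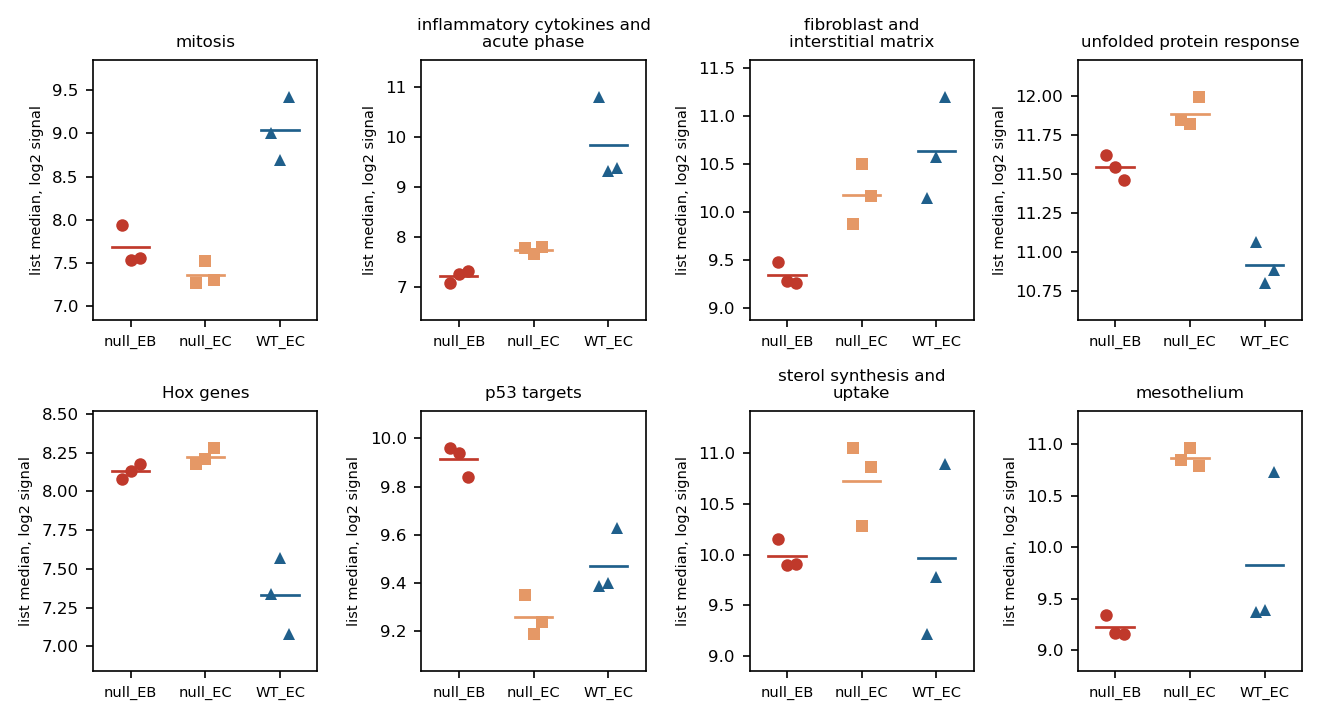
Median log2 signal of 8 gene lists on each array of null_EB (circles), null_EC (squares) and WT_EC (triangles), with the mean of the 3 medians as a line. Mitosis, inflammatory genes and Hox genes keep both null groups on one side of WT_EC, whereas the mesothelium medians of null_EB (9.16 to 9.34) lie below those of null_EC (10.79 to 10.96) and the p53 targets stand highest in null_EB.

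A further pattern appeared in null_EB alone by its rule: called and at least 2-fold against WT_EC, called the same way against null_EC, and less than 0.32 apart (log2) between null_EC and WT_EC. This rule too rests on the calls of null_EB against null_EC. Of 214 genes called higher and 463 called lower by 2-fold or more in null_EB against WT_EC, the pattern held 18 higher and 23 lower ones. Prl2c5, Ugt2b34 and Slc40a1 belong to it, with null_EC at 7.46 to 7.79, 5.82 to 6.05 and 7.16 to 7.68. The WT_EC arrays of Prl2c5, given above, lay far on both sides of null_EC, so only their mean was near it. Plxdc1, a receptor first described on tumour endothelium, was at 9.39, 9.58 and 9.65 in null_EB, 7.66, 7.57 and 7.72 in null_EC and 7.46, 7.80 and 7.16 in WT_EC. Try5, a trypsin of a family with close copies, was at 9.20 to 9.72 in null_EB, 7.52 to 7.67 in null_EC and 7.58 to 7.79 in WT_EC. The null_EB arrays lay well above the other 6 arrays in these genes. Gcnt1, which branches O-linked glycans, was at 10.87 to 10.88 in null_EB, 9.25 to 9.33 in null_EC and 8.17 to 9.90 in WT_EC.

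Among the lower genes of that pattern were both drug efflux pumps of the Abcb1 pair. Abcb1b was at 7.72, 7.46 and 7.57 in null_EB, 10.12, 10.69 and 10.39 in null_EC and 10.59, 10.40 and 10.77 in WT_EC, 8.02-fold lower in null_EB than in WT_EC. Its neighbour Abcb1a was at 7.66, 7.73 and 7.40 in null_EB, 9.43, 9.80 and 9.75 in null_EC and 10.26, 9.49 and 10.16 in WT_EC, 5.18-fold lower, and as close copies they may share probes. Rarb, a retinoic acid receptor that retinoids induce, was at 7.48, 7.26 and 7.38 in null_EB, 9.21, 9.69 and 9.28 in null_EC and 9.54, 8.95 and 9.96 in WT_EC, 4.32-fold lower. All null_EB arrays of these genes had low signal and lay far below the other groups. Id2, an inhibitor of helix-loop-helix factors induced by BMP, was at 9.33 to 9.89 in null_EB, 11.24 to 11.26 in null_EC and 10.63 to 12.32 in WT_EC, 3.79-fold lower. Ogn, a small proteoglycan, was at 7.09 to 7.96 in null_EB, 9.67 to 10.55 in null_EC and 8.24, 11.46 and 11.16 in WT_EC. Its decrease against WT_EC was 14.8-fold without WT_EC 1 and 4.85-fold without WT_EC 2, beside 7.29-fold in all, and its call was lost without null_EB 2 (adjusted p = 0.055) or null_EB 3 (adjusted p = 0.0571). Tmem255a was 4.69-fold lower, 2.69-fold without WT_EC 3, and not called without null_EB 3 (adjusted p = 0.0546). Of 18 retinoid pathway genes 5 fell and 2 rose in null_EB against WT_EC, with a median of -0.38, against 1 lower and 2 higher in null_EC against WT_EC, and 9 were lower in null_EB without WT_EC 2. The secreted Rarres2, also called chemerin, was at 7.42, 7.52 and 7.58 in null_EB and 8.50, 9.28 and 8.87 in WT_EC (2.60-fold lower, adjusted p = 0.000532). Of 27 genes of the TGF-beta and BMP pathway 4 fell and 1 rose (1 and 0 with the 6 arrays alone, 7 and 1 without WT_EC 1, 11 and 1 without WT_EC 2), among them Bmp6 (1.99-fold lower, adjusted p = 0.00124) and the BMP antagonist Grem1 (2.19-fold higher, adjusted p = 0.0111).

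A last group of genes was called on opposite sides of WT_EC. Of the 2462 genes called higher and 1235 called lower in null_EB, 12 and 20 had the opposite call in null_EC. Kdr, the main VEGF receptor of endothelium, was at 7.35, 7.26 and 7.40 in null_EB, 10.83, 10.74 and 10.52 in null_EC and 8.51, 8.61 and 9.35 in WT_EC. It was 2.80-fold lower in null_EB than in WT_EC (log2 -1.48) and higher in null_EC than in WT_EC by 1.88. Thbd, the thrombin receptor thrombomodulin, was at 9.69, 9.40 and 9.30 in null_EB, 12.01, 11.95 and 11.87 in null_EC and 10.97, 10.54 and 10.35 in WT_EC. The 3 groups did not overlap in either gene. Cpz, a carboxypeptidase that binds Wnt proteins, was at 8.78 to 8.84 in null_EB, 10.20 to 10.30 in null_EC and 9.47 to 10.01 in WT_EC. Dock8, a guanine nucleotide exchange factor of leukocytes, was at 7.61 to 7.86 in null_EB, 10.38 to 10.65 in null_EC and 8.08 to 9.90 in WT_EC, and its call against WT_EC was lost without any 1 array of null_EB or null_EC (adjusted p from 0.071 to 0.147).

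In the opposite direction Tead2, a DNA-binding partner of YAP, was at 10.22, 10.36 and 10.15 in null_EB, 8.98, 8.74 and 8.82 in null_EC and 9.51, 9.18 and 9.21 in WT_EC. Psrc1, a p53 target that binds microtubules, was at 10.64, 10.84 and 10.85 in null_EB, 9.35, 9.29 and 9.38 in null_EC and 9.88, 10.05 and 10.13 in WT_EC. Neto2, an auxiliary subunit of kainate receptors, was at 10.89 to 11.08 in null_EB, 8.89 to 9.35 in null_EC and 9.90 to 10.26 in WT_EC, and the cardiac troponin gene Tnnt2 at 10.24 to 10.80 in null_EB, 8.93 to 9.08 in null_EC and 9.43 to 10.17 in WT_EC. In all 4 the null_EB arrays were the highest and the null_EC arrays the lowest of the 3 groups.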

How the data were processed

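RNA was measured on 12 Affymetrix mouse gene arrays (3 per group); the label protocol names a human array, but the probe sets matched mouse genes. The authors deposited log2 values made by RMA in Affymetrix Expression Console 1.2.1, per the submitters' processing notes. RMA equalises array distributions, so a global shift in RNA would not show. From 35556 probe sets, 21789 name 1 gene, and the probe set with the highest mean over all 12 arrays was kept, leaving 19938 genes. A linear model with 1 mean per group over all 12 arrays was fitted in limma 3.58.1 (R 4.3.3) with eBayes and Benjamini-Hochberg adjustment, and was tested on simulated data with each group's own spread, where most changed genes were recovered but, against WT_EC, more unchanged than changed genes were called. Genes named are Cd47, Myc, Pou5f1, Sox2, Klf4 and Nanog, the 12 largest called increases and decreases without overlap between groups, up to 3 per list and direction (43 lists), and 4 to 6 per direction of each pattern, without predicted genes and receptors of smell and taste. Members, lists and rules were chosen with earlier results of these data known. Replicate numbers did not pair arrays: correlations of same-numbered deviations ran from -0.26 to 0.22. Alternatives were other fits, weights, filters, scalings, a replicate block and left-out arrays.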

Additional observations from a re-analysis of the deposited data

Results flagged for a closer look

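For 32 of the named genes the difference from WT_EC in null_EB differed from that in null_EC, as the contrast of null_EB with null_EC tested; these genes were selected through that contrast, so it is no independent support. All values are log2, null_EB minus null_EC. Lower in null_EB were Kdr (-3.36), Podxl (-2.89), Abcb1b (-2.81), Dock8 (-2.77), Ogn (-2.71), Rasgrp3 (-2.60), Thbd (-2.48), Adgrg1 (-2.45), Lgr5 (-2.27), Tmem255a (-2.26), Muc16 (-2.25), Vdr (-2.24), Abcb1a (-2.06), Rarb (-2.02), Id2 (-1.73) and Cpz (-1.43). Higher in null_EB were Prl2c5 (3.50), Ugt2b34 (2.47), Slc40a1 (2.44), Cd80 (2.35), Ptgs2 (2.07), Neto2 (1.91), Plxdc1 (1.89), Try5 (1.87), Gpnmb (1.74), Raet1d (1.66), Ano3 (1.64), Antxr2 (1.64), Gcnt1 (1.58), Tnnt2 (1.54), Psrc1 (1.44) and Tead2 (1.39).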

How the results depend on the processing

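The number of genes called in null_EB against WT_EC (3697) was 870 with the 6 arrays alone, 1915 with array weights by group, 2309 after the housekeeping shift, and 2026 (without null_EB replicate 2) to 6496 (without WT_EC replicate 2) when 1 array of the compared groups was left out. In null_EB against null_EC (1077) it was 5464, 5364 and 3063 in these settings, 8001 with weights per array, and 390 to 676 with 1 of its own arrays left out (1828 to 2676 without 1 WT_EC array, which enters through the shared spread). In null_EC against WT_EC (2615) it was 588, 1531 and 4153, and 1335 to 5435 with 1 of its own arrays left out. The share of higher calls after the housekeeping shift was 57% in null_EB against WT_EC, 92.1% in null_EB against null_EC and 10.1% in null_EC against WT_EC, beside 66.6%, 53.7% and 61.9%, and after cyclic loess 45.7%, 48% and 43.4%. With the replicate block 3256, 764 and 2237 were called. Without the ESC arrays, a setting chosen after seeing the data, 2543 were called in null_EB against WT_EC. Of 176 named genes called, 73 kept the call with the 6 arrays alone, 146 with weights by group, 163 after cyclic loess, 159 with the replicate block and 115 to 168 without 1 array of null_EB or WT_EC. The log2 difference of Muc16 between null_EB and WT_EC turned to -0.51 without WT_EC replicate 1, and was 0.56 without WT_EC replicate 3. The causes were not tested. Genes of low signal have compressed differences on these arrays.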

Other observations

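Of 23 genes of oxidative stress defence (the NRF2 list) 5 were higher and 4 lower in null_EB against WT_EC, but 3 and 0 with the 6 arrays alone, 11 and 2 without WT_EC 1, and 3 and 1 without any 1 null_EB array. Gclc, a subunit of the rate-limiting enzyme of glutathione synthesis, was at 11.77, 11.97 and 11.91 in null_EB and 10.99, 10.10 and 10.16 in WT_EC (2.76-fold higher, adjusted p = 0.000883 by limma). The glutathione transferase Gsta4 was at 11.71, 11.84 and 11.71 in null_EB and 9.76, 10.67 and 9.37 in WT_EC (3.52-fold higher, adjusted p = 0.000868). Against null_EC 5 members rose and 0 fell. In the hypoxia and glycolysis list 2 of 30 rose and 4 fell, but without WT_EC 1 there were 18 higher and 3 lower (median 0.38), and without WT_EC 2 there were 2 higher and 7 lower (median -0.05). The lower genes included the carbonic anhydrase Car9 at 7.39, 7.48 and 7.26 in null_EB and 9.50, 8.44 and 8.8 in WT_EC (2.90-fold lower, adjusted p = 0.00199). Of 28 targets of YAP and SRF, the factors that respond to tension on the cell, 10 fell and 0 rose (4 fell with the 6 arrays alone), with a median of -0.43. Ccn2, a matricellular growth factor, was at 11.92, 10.90 and 10.94 in null_EB and 13.61, 12.70 and 12.96 in WT_EC (3.57-fold lower, adjusted p = 0.00114). Immediate early genes had 6 of 30 lower and 2 higher (1 and 0 with the 6 arrays alone, 14 lower without WT_EC 2, 3 lower without null_EB 2), with Jun at 9.61, 9.48 and 9.48 in null_EB and 10.56, 10.45 and 11.48 in WT_EC.

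The GABA-A receptor subunit gene Gabrb1 was at 9.49, 8.93 and 8.84 in null_EB and 6.99, 7.05 and 6.32 in WT_EC (4.91-fold higher, adjusted p = 0.000153). In the IGF system Igfbp7, an abundant secreted binding protein, was at 12.83, 12.63 and 12.80 in null_EB and 13.52, 13.49 and 13.57 in WT_EC (adjusted p = 7.92e-05), with 2 of 14 members higher and 3 lower (1 lower without WT_EC 3 or any 1 null_EB array). The next counts stand beside 12.3% of all genes higher and 6.19% lower. Of 22 endoderm genes 2 were higher and 0 lower, and of 24 ectoderm and neural genes 1 in each direction. The FGF pathway had 1 of 23 higher and 4 lower, fatty acid synthesis 0 of 14 higher and 1 lower, FoxO targets 0 of 22 higher and 2 lower, cell cycle inhibitors 1 of 17 in each direction, epithelium and junctions 3 of 32 higher and 2 lower, and housekeeping genes 4 of 16 higher and 0 lower. Leaving out 1 array moved these small counts too: FGF pathway genes had 1 (without null_EB 2) to 8 (without WT_EC 2) lower, cell cycle inhibitors 6 lower without WT_EC 2, FoxO targets 4 higher without WT_EC 2 and 5 lower without WT_EC 1, fatty acid synthesis 4 lower without WT_EC 1, and epithelium and junctions 5 lower without WT_EC 2.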
